A study of Drosophila melanogaster with 2 samples.

Results

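The 351 regions described here are places inside genes, away from any transcript start, where the tagged product of CG42726, a protein-coding gene known by its number alone, was found on the chromatin of Drosophila melanogaster embryos. They were taken from the 2747 called regions of the main list with a position on 2L, 2R, 3L, 3R, X or chromosome 4. A region was kept when its summit, the point of highest signal, lay more than 500 bp from every annotated transcript start and inside the span of at least 1 annotated gene. Of the rest, 2188 summits lay within 500 bp of a start and 208 lay between genes.

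The data are chromatin immunoprecipitation followed by sequencing (ChIP-seq) of whole embryos aged 0 to 24 hours from the transgenic strain CG42726-GFP, which carries an insertion that expresses CG42726 fused to eGFP. The fusion protein was precipitated with an antibody against GFP, and there is 1 group of 2 biological replicates. The labels do not name the promoter that drives the fusion protein, and the chromatin comes from all cell types of the embryo over the whole of its development. Strong binding in few cells and weak binding in many therefore cannot be told apart. No group was compared with another, and the differences between locations given here are descriptions with counting intervals and no test.

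Sequence inside a gene but away from its start is mostly intron, and in flies long first introns are known to hold many enhancers, the elements that switch a gene on in certain cells. Gene bodies also hold insulator elements, bound by zinc finger proteins such as CTCF and Su(Hw), which limit the reach of enhancers. Promoters of genes active in most cells carry other letters, among them the DNA replication-related element (DRE), TATCGATA.

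The 2 strongest regions, in an intron of Kr-h1 and in the non-coding RNA gene lncRNA:CR9162 that lies near it, shared a repeated stretch of sequence close to their summits. Each held 2 copies, shown here because no weaker distal gene-body region held an exact copy. Letters in capitals are those that all 4 copies share.

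Kr-h1, first copy: GgcGTGCatggGTTTtCGActc
Kr-h1, second copy: GtcGTGCgcgaGTTTtCGAcag
lncRNA:CR9162, first copy: GcaGTGCacggGTTTtCGAcat
lncRNA:CR9162, second copy: GacGTGCaatgGTTTgCGAtgc

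All 4 are given on the plus strand of the RefSeq copy of the assembly, at chr2L:6088467-6088488, chr2L:6088527-6088548, chr2L:6079084-6079105 and chr2L:6079131-6079152. Their shared letters, GNNGTGCNNNNGTTTNCGA with N for any base, span 19 positions of which 12 are fixed. Searched on both strands, these letters occurred 26 times on the 6 chromosomes, and 4 of those occurrences lay in a region of the main list, all in these 2 regions. The lists of pooled reads, of replicate 1 and of replicate 2 also held 4 of the 26 each, in 2 regions per list. With 1 mismatch allowed there were 529 occurrences, and 8 of them lay in 6 regions of the main list. One of the added regions was the third strongest of the list (signal 2843), which lies between genes 1163 bp from a start of Kr-h1. The other 3 were promoter regions at PolA1, Pez and Lasp with signals of 164, 121 and 112. The shared letters were read from the strongest regions after their signals were known, so these counts describe them and test nothing.

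Another recurring set of letters was AGNNGGCGC, which resembles the known core of the site of fly CTCF. It is shown in 6 of the strongest regions that hold it, with the matched letters in capitals, because more distal gene-body summits held it than their flanks did.

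CG9171: taaatctgtgAGAGGGCGCtgctgtagaa
Hr4: gctgctgcacAGATGGCGCcagccaactg
raskol: attcgccaacAGGTGGCGCcacttagtga
Eip74EF: tactagctgtAGATGGCGCcaccatttta
CG43980: acctgcagacAGATGGCGCacgctgtcaa
Ca-alpha1T: agcggacgccAGGTGGCGCcacacatgta

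These windows lie at chr2L:5771335-5771363 (minus strand), chrX:1953107-1953135 (minus), chrX:17720475-17720503 (plus), chr3L:17597113-17597141 (plus), chr3L:21652973-21653001 (minus) and chrX:6110091-6110119 (plus). All coordinates are on dm6.

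The signal of a region is the authors' own value in the deposited list, and it was low for most of the 351 regions. Their median was 76.7 (95% interval 74.3 to 79.5, interquartile range 67.9 to 102), against 109 at promoters and 95.9 between genes. Of the 351, 86 had a signal above the median of the whole list, 17 stood among its 500 strongest regions and 4 among its 100 strongest. Values of the single replicates come from each replicate's own ranked list, as the strongest region that overlaps.

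The first intron of Kr-h1, which encodes a zinc finger factor of the juvenile hormone response, held the strongest region of the list, chr2L:6088282-6088734, with a signal of 13437. It had 7454 in replicate 1 and 5996 in replicate 2. The region in an exon of lncRNA:CR9162, chr2L:6078862-6079296, had a signal of 5917, with 3307 and 2601 in the replicates. In the other regions the highest value in either replicate was 303.1.

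Next came the first intron of Adf1, which encodes a DNA-binding transcription factor, with a signal of 499.5 at chr2R:6662965-6663166 and replicate values of 239 and 262.

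The fourth intron of SK, the gene of a calcium-activated potassium channel, held a region of 348 at chrX:5382685-5382848. Its replicates differed, with 67.4 in replicate 1 and 303 in replicate 2, and its summit lay in a tandem repeat of the 6 letters ACACCC:

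SK, chrX:5382728-5382756, plus strand: acacccacacccacacccacacccacacc

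After SK the signals were closer together. The 3' UTR of exu, a gene needed to localize bicoid RNA in the egg, had 230.1, and that of CG16989 had 211. First introns of zf30C, a zinc finger gene, and Pp2C1, a protein phosphatase gene, had 208 and 194. The third intron of Tet, the fly member of the Tet dioxygenase family, held a region of 207 that lay 27199 bp from any start. The replicates gave it 105 and 119. CG9171 had 198, tun 194, CG3726 184, CG10357 173, sick 172 and Rtnl1, a reticulon gene, 166. Regions in coding exons were led by otp, a homeodomain factor (189.8), and by CG10357, and InR, the insulin receptor, had 161. RpS26, which encodes a protein of the small ribosomal subunit, had 178 in its 3' UTR. The third intron of EcR, the ecdysone receptor gene, had 176, and the first intron of Egfr, the epidermal growth factor receptor gene, had 167. In 5' UTRs the highest values were those of ush, a cofactor of GATA factors (163), crol, a zinc finger gene of the ecdysone response (140.5), and eas, an ethanolamine kinase gene (132). The strongest non-coding exons besides lncRNA:CR9162 were those at CG9171, where asRNA:CR31912 overlaps, and lncRNA:CR45324 (97.7).

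**Figure D1:**
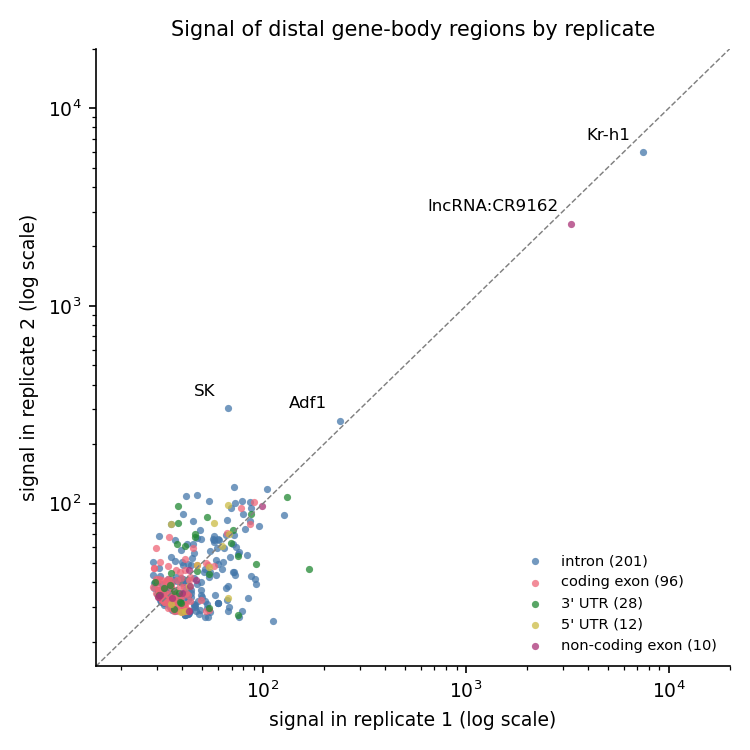
Signal of the distal gene-body regions in replicate 1 (x axis) and replicate 2 (y axis), both on log scales, for the 347 of 351 regions with a value in both. Each point is a region, coloured by its location, and the dashed line marks equal values; Kr-h1 and lncRNA:CR9162 lie far from the rest and near the line, and SK lies above it.

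The single-replicate lists held a smaller share of these regions than of the main list as a whole. Of the 351, 154 (43.9%, interval 38.6 to 49.2) overlapped a region in the list of replicate 1, against 72.2% of the main list. In the list of replicate 2 the count was 108 (30.8%, 26.0 to 35.9) against 52.2%. Both single lists held 78 (22.2%, 18.0 to 26.9), against 45.6% of the main list, 50.1% of promoter regions and 37.5% of intergenic ones. Neither single list held 167 (47.6%, 42.3 to 52.9), against 21.1%. The list of pooled reads held 319 (90.9%, 87.4 to 93.7), against 94.3% of the main list.

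Signals in the 2 replicates were of like size for most of these regions, although each comes from its own list and the scale of the lists is not given. The ratio of replicate 1 to replicate 2 had a median of 1.07 over 347 regions, and 90% lay between 0.613 and 1.91. At promoters the median ratio was 1.38. Across these 347 regions the Spearman correlation of the replicates was 0.294, against 0.623 over 2175 promoter regions. In 24 of the 347 the replicates differed by more than 2-fold. SK was the farthest with more in replicate 2, followed by Hr4, a nuclear receptor gene (41.8 and 110), and the 3' UTR of the Hox gene Antp (38.0 and 96.8). In the other direction stood the T-box gene org-1 (112 and 25.5), CG16989 (168 and 46.8) and the autophagy kinase gene Atg1 (76.1 and 26.7).

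The 351 rows of the list stand for 338 separate places. In 13 pairs of members the regions overlapped by 63 to 97 bp, and the weaker of each pair had a signal of 2.09 to 20.3 in the main list, while its partner had 52.7 to 102. Both regions of a pair took their replicate values from the same region in each replicate. The lowest signal among the other members was 38.15. Without the weaker region of each pair the median signal was 78.0.

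Most regions lay in introns, and over all 351 the share was under that of introns in the sequence, which did not hold for the stronger regions. Introns held 205 of the 351 (58.4%, interval 53.1 to 63.6), although they make up 66.7% of the 79.3 Mb of gene-body sequence that lies over 500 bp from any start. Coding exons held 96 (27.4%, 22.8 to 32.3, against 23.2% of the sequence) and 3' UTRs 28 (7.98%, 5.37 to 11.3, against 7.48%). There were 12 regions in 5' UTRs (3.42%, 1.78 to 5.90, against 1.32%) and 10 in non-coding exons (2.85%, 1.37 to 5.18, against 1.35%). Of the 86 whose signal exceeded the main list's median, 72.1% were intronic (interval 61.4 to 81.2), and of the other 265 it was 54.0% (47.8 to 60.1). Counted as intronic wherever any transcript has an intron there, introns held 65.8% of the regions (60.6 to 70.8) and 71.9% of the sequence.

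**Figure D2:**
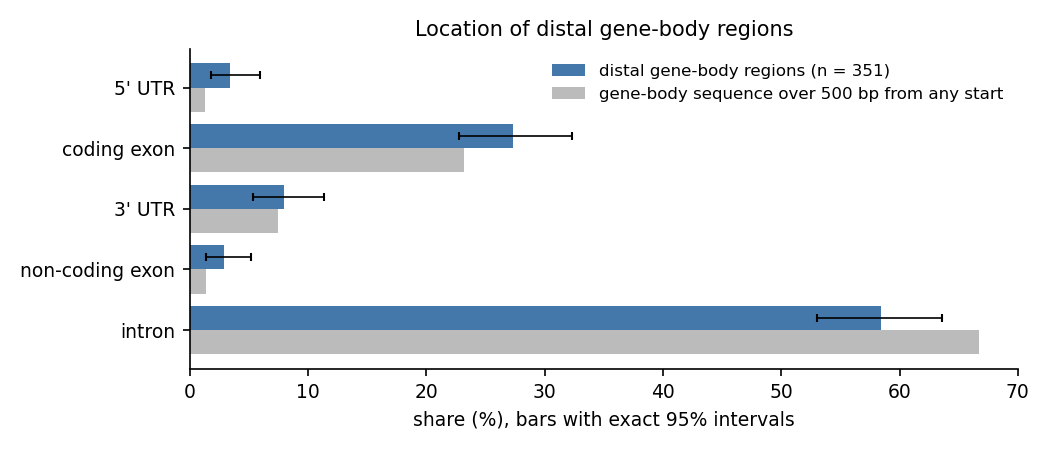
Share of the 351 distal gene-body regions in each kind of location (blue, with exact 95% intervals) beside the share of gene-body sequence over 500 bp from any start (grey). Introns held 58.4% of the regions and 66.7% of the sequence, and 5' UTRs 3.42% and 1.32%.

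Signal and recurrence differed with location. Regions in 3' UTRs had a median signal of 101, those in introns 80.2 and those in coding exons 70.5. Both single-replicate lists held 41.7% of the 12 regions in 5' UTRs, 39.3% of those in 3' UTRs, 3 of the 10 in non-coding exons, 24.9% of the intronic ones and 8.33% of the coding ones. Neither held 70.8% of the coding ones. In 15 of the 28 regions of 3' UTRs the nearest start belonged to another gene, and in 9 of those 15 it lay within 1000 bp. The region in the 3' UTR of exu, for instance, lay 789 bp from the start of Fem-1. Over all 351 regions the nearest start belonged to a gene around the summit in 221 and to another gene in 130.

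The regions crowded toward starts well beyond the 500 bp limit. Between 500 and 1000 bp from the nearest start there were 125 regions, 11.8 per Mb of eligible sequence, and the exact Poisson 95% interval began at 9.80. The labels give chromatin fragments of 200 to 800 bp, so this bin lies partly within 1 fragment length of a start. What that adds to its density was not tested. The density was 6.40 per Mb at 1000 to 2000 bp (92 regions, interval 5.16 to 7.85), 3.62 at 2000 to 5000 bp (76 regions, 2.85 to 4.53) and 2.51 at 5000 to 10000 bp (36 regions, 1.76 to 3.48). It was 1.53 at 10000 to 20000 bp (15 regions) and 0.765 beyond (7 regions, 0.308 to 1.58). Signal did not follow the same course, with medians of 75.9 in the nearest bin and 83.8 in the farthest. The Spearman correlation of signal with distance was 0.078 over the 351 regions. Both single-replicate lists held 17.6% of the regions at 500 to 1000 bp, and neither held 54.4%. At 2000 to 5000 bp these shares were 26.3% and 38.2%, and at 5000 to 10000 bp 22.2% and 47.2%.

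At the limit itself, the 3 nearest regions that were kept lay in tun at 501 bp from a start (signal 194), woc at 502 bp (119.8) and Prx6c at 508 bp (89.7). Those just outside lay in wech at 499 bp (92.9), CG18659 at 498 bp (70.7) and Mob4 at 487 bp (83.6). There were 31 regions inside genes at 400 to 500 bp and 29 at 500 to 600 bp.

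First introns held most of the intronic regions when any transcript counted. Among the regions in an intron of the longest transcript the share was under 50%. An intronic summit counted for intron 1 when it lay in the first intron of any transcript of a host gene, and 127 of 205 did (62.0%, interval 54.9 to 68.6), against 43.4% of the intronic sequence. This is 5.54 regions per Mb (4.62 to 6.59). Second introns held 41 (3.20 per Mb, 2.30 to 4.34), the third introns 15 (2.93 per Mb) and later ones 22 (1.84 per Mb, 1.15 to 2.78). By the longest transcript of the longest host alone, 47.2% of the regions in an intron of that transcript were in its first. These are not the same set as the 205, and the share of the sequence by that rule was not computed. Since first introns lie nearer to starts, they were also compared at like distances. First introns held 14.1 per Mb at 500 to 1000 bp and later introns 11.8, and at 1000 to 2000 bp these were 8.57 (6.04 to 11.8) and 4.80 (2.56 to 8.22). At 2000 to 5000 bp the densities were 4.61 and 2.97, at 10000 to 20000 bp they were 1.81 and 1.38, and beyond they were 1.48 and 0.686. Only at 5000 to 10000 bp were later introns denser, with 2.68 against 1.91. The intervals overlapped at every distance.

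**Figure D3:**
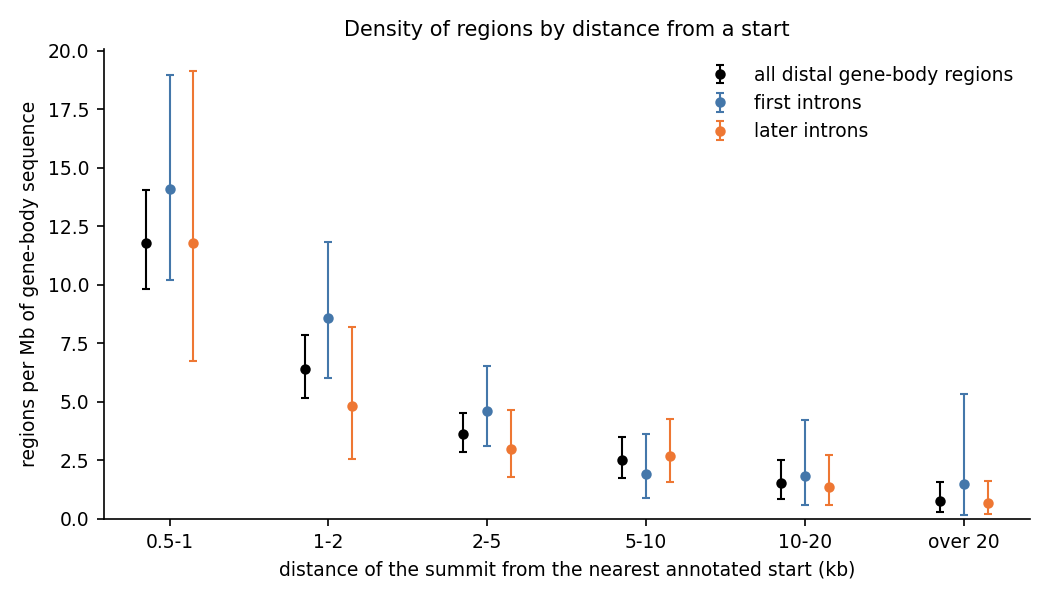
Regions per Mb of gene-body sequence (y axis) by distance of the summit from the nearest annotated start in kb (x axis), for all 351 regions and for first and later introns, with exact Poisson 95% intervals. Density fell from 11.8 to 0.765 per Mb, and the intervals of first and later introns overlapped at each distance.

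Long genes held fewer regions for their length. The longest gene around each summit had a median length of 15371 bp (interval 13743 to 18922). Weighted by eligible bases the median host was 32594 bp long, and the median protein-coding gene was 2166 bp long. Density was 7.60 per Mb in genes of up to 2000 bp (25 regions, interval 4.92 to 11.2), 6.11 in genes of 10000 to 20000 bp and 1.50 in genes over 100000 bp (22 regions, 0.941 to 2.27). These densities were not compared at like distances from a start. Median signals in these 3 groups were 76.4, 72.0 and 88.0, and both single lists held 20%, 14.5% and 27.3%. In hosts of 50000 to 100000 bp the median was 89.2, and both single lists held 38%. Within the host gene, the 5' part held more. The first of 3 equal parts of the gene's length held 134 regions (5.83 per Mb). The middle part held 111 (3.99 per Mb) and the last 106 (3.73 per Mb). These parts were not compared at like distances from a start either. Among chromosomes, 2L, 3L and 2R had 5.71, 5.70 and 5.22 per Mb, 3R had 3.43 and X had 2.88 (2.09 to 3.87). Chromosome 4 held 0 in 0.958 Mb, which allows up to 3.13 per Mb.

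The 351 regions lay in 336 host genes, and 337 of the 351 lay in a protein-coding gene. Of 13945 protein-coding genes, 317 (2.27%) had such a region in the body. With the weaker region of each overlapping pair left out, 308 host genes had 1 region, 25 had 2 and 3 had more. A region counts here for every gene around its summit, and 31 of the 351 lay in several genes. Kr-h1 held 5, of which 4 were in its first intron. The 5 had signals of 13437, 171, 114, 89.1 and 67.0, the last in a coding exon. The summit of the region of 171 lay 734 bp from that of 13437, which is within the fragment sizes of 200 to 800 bp. Whether its signal is separate from that of its neighbour was not tested. The bithorax complex RNA gene lncRNA:iab8 held 3, with signals of 113, 110.5 and 99.2. The gene of the corepressor sbb also held 3, at 90.0, 83.8 and 61.8. Abl (a tyrosine kinase), SNF4Agamma (a subunit of the AMP-activated kinase) and tou (a chromatin remodelling factor) were each listed with 3, but 2 of the 3 overlapped.

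Host genes were also grouped by function, in lists chosen with earlier results of these data known. The body of 8 of 29 genes of hormone response and nuclear receptors held a region (27.6%, interval 12.7 to 47.2), with 16 regions or 18.8 per Mb (10.7 to 30.5). Over all protein-coding genes the density was 4.36 per Mb (3.91 to 4.85). Without Kr-h1 the list had 11 regions in 7 of 28 genes, 13.1 per Mb (6.54 to 23.4). The median length of the 29 genes was 22386 bp. Of protein-coding genes of 20000 to 50000 bp, 10.2% held a region. For those over 50000 bp the share was 18.9% (interval 14.7 to 23.7), which lies inside the interval of the 27.6%. Of the 16 regions 15 were intronic. Besides Kr-h1 they lay in EcR (2 regions, 176 and 78.4), Hr4 (153), the ecdysone-induced genes Eip74EF (141 and 64.8) and Eip75B (119.3 and 109), and in Hr3, gce and ftz-f1 (60.6, 69.9 and 64.3). The Hr3 region was the stronger of an overlapping pair, which counts as 2 of the 16. EcR encodes the receptor of the moulting hormone ecdysone, and gce a receptor of juvenile hormone.

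Among the other lists given here, the interval lay wholly above 4.36 per Mb for chromatin proteins alone. They had 10 regions in 7 of 79 genes (11.2 per Mb, interval 5.35 to 20.5), with signals of up to 84.4. The 10 stand for 9 separate places, as 1 is the weaker tou region of an overlapping pair, and the interval counts all 10. The median length of the listed genes was 6487 bp. In hosts of 5000 to 10000 bp the density was 6.34 per Mb, inside that interval. The strongest were brm, the ATPase of a remodelling complex (84.4), psq, which binds GAGA sequences (84.0), and tou (80.6). Signalling genes had 12 in 11 of 94 (7.98 per Mb, 4.12 to 13.9), led by Egfr (167), InR (161) and shn (113). Homeodomain genes had 9 in 7 of 68 (6.95 per Mb, 3.18 to 13.2), led by otp (189.8) and by Antp (131) and Ubx (129), which give segments of the trunk their identity. Ubx had 92.2 in replicate 1 and 39.3 in replicate 2. Other developmental transcription factors had 13 in 13 of 93 genes (7.25 per Mb, 3.86 to 12.4), with tio (154), Mef2, a muscle factor (122), and org-1 (113) at the top.

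In 3 lists the density was under the 4.36 per Mb of all protein-coding genes, and the interval lay wholly under it for axon guidance and adhesion genes alone. Axon guidance and adhesion genes, whose median length was 40368 bp, had 4 regions in 4 of 83 genes, 0.957 per Mb (0.261 to 2.45), and the strongest were dlp (74.3), Fas2 (73.4) and otk (67.7). Ion channels and neurotransmitter receptors had 4 in 4 of 74 (1.78 per Mb, 0.484 to 4.55), in SK (348), Ca-alpha1T (126), KCNQ (84.4) and Shab (67.4). RNA-binding proteins had 4 in 4 of 49 (2.25 per Mb, 0.612 to 5.75), in brat (113), Imp (103), Rbfox1 (68.3) and egl (61.7). Protein-coding genes over 50000 bp of any function had 70 regions, 2.50 per Mb (1.95 to 3.16), and those of 20000 to 50000 bp had 80, 4.01 per Mb.

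**Figure D4:**
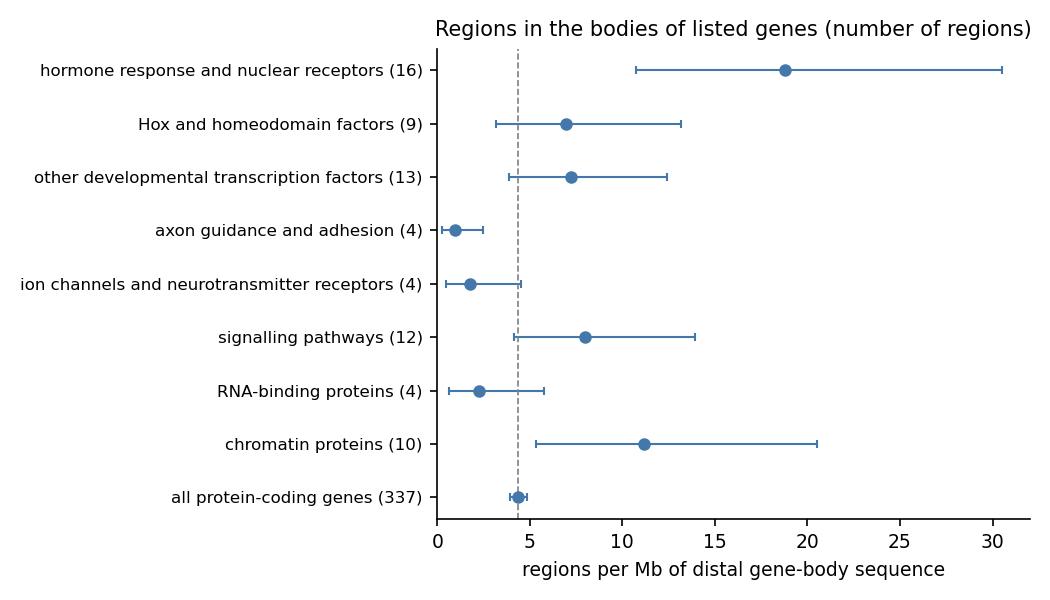
Distal gene-body regions per Mb of eligible sequence (x axis) in the bodies of listed genes, with exact Poisson 95% intervals and the number of regions in brackets. The dashed line marks all protein-coding genes at 4.36 per Mb, and hormone response genes (18.8 per Mb) and axon guidance genes (0.957 per Mb) stand farthest from it. Without Kr-h1 the hormone response genes had 13.1 per Mb.

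Letters known from promoters stood at a smaller share of these summits than of promoter summits. Both strands were searched, from 50 bp before to 50 bp after the summit and in flanks that began beyond 200 bp and ended at 250 bp on either side of it. The DRE, TATCGATA, stood at 4 of 351 summits (1.14%, interval 0.311 to 2.89), against 12.9% of the whole list and 15.7% of promoter summits. The 4 lay in exu, Tudor-SN, Atg1 and Stt3A, and the signal of 230.1 at exu was the highest. GGTCACACT, the promoter letters bound by M1BP, stood at 2 summits (0.570%) and at 4.57% of promoter summits. CANCNCTA stood at 13 (3.70%) and at 16.5% of promoter summits. GAGAG, bound by GAGA factor, was found at 63 summits (17.9%, 14.1 to 22.4), against 13.4% of the whole list, and in flanks its share was 17.1% (13.3 to 21.4). It occurred near 11.9% of 396370 eligible positions spaced 200 bp apart. GATAAG, bound by GATA factors, was found at 6 summits (1.71%) and 5.41% of flanks, and runs of 8 adenines at 5 (1.42%) and 5.41%. CACGTG, an E-box, stood at 10 summits (2.85%, 1.37 to 5.18) and in 0.570% of flanks, and 2.00% of all summits held it. Both of the strongest regions, in Kr-h1 and lncRNA:CR9162, were among the 10.

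AGNNGGCGC, searched after frequent 8-letter words had been seen, stood at 37 of 351 summits (10.5%, interval 7.53 to 14.2), against 5.06% of the whole list. The share in flanks was 1.71% (0.630 to 3.68), at eligible positions 1.01%, at promoter summits 2.88% and at intergenic summits 18.8% (13.7 to 24.7). Of the 10 words of 8 letters with the largest excess at the summit over the flanks, AGATGGCG (17 summits, 0 flanks), GATGGCGC (17 and 1), ATGGCGCC (15 and 0), AGGTGGCG (17 and 4), TGGCGCCA (13 and 0) and AGAGGGCG (13 and 1) overlap it. The other 4 were ACTGCTTG (16 and 2), AAGCAGTG (15 and 2), ATTTTACA (16 and 3) and ATGTAAAA (14 and 1). Any of the 10 stood at 78 summits (22.2%) and in 13 flanks (3.70%), a gap that the choice of the words fixes and that tests nothing. The letters GCATACTT, part of the known Su(Hw) site and also added after seeing the data, stood at 6 summits (1.71%), 0.285% of flanks, 7.21% of intergenic summits and 1.06% of all summits.

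**Figure D5:**
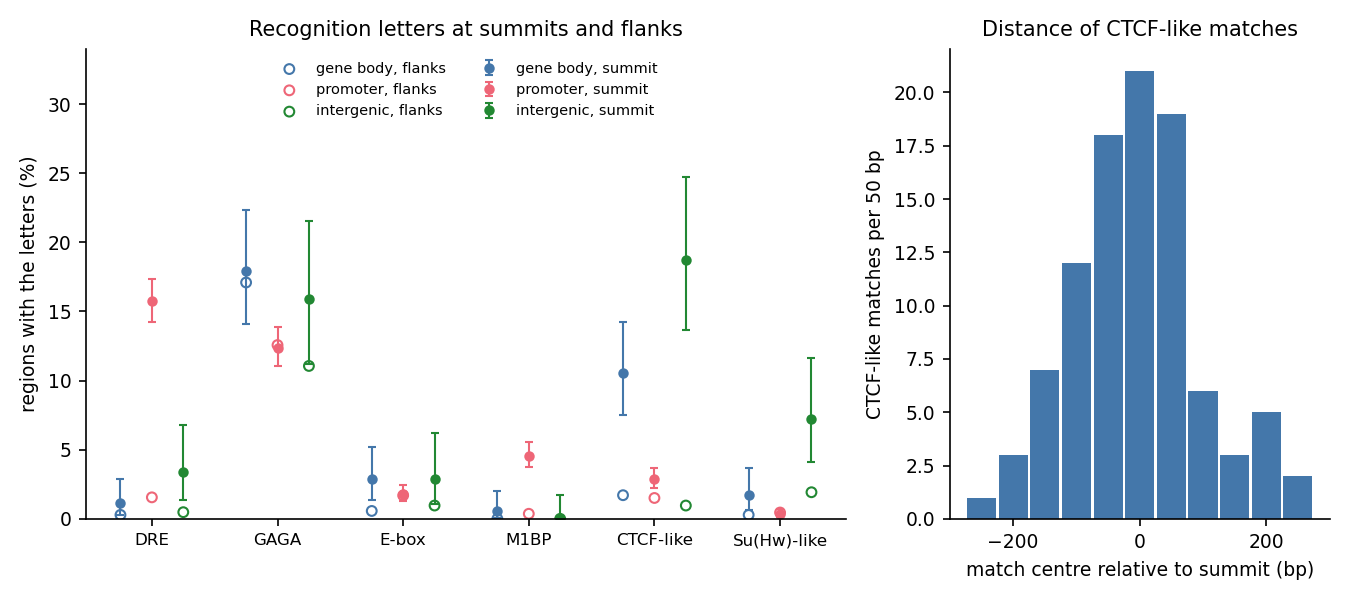
Left, share of regions (%) with recognition letters at the summit (filled, exact 95% intervals) and in flanks (open), for gene-body, promoter and intergenic regions; right, number of CTCF-like matches per 50 bp by distance from the summit in bp. CTCF-like letters stood at 10.5% of gene-body summits and DRE letters at 1.14%, and the 50 bp around the summit held 21 matches, with 18 and 19 in the adjoining bins.

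Regions with AGNNGGCGC had a higher median signal, and a larger share of them was in both single lists. Their signals ran from 20.3 to 198 with a median of 103, and the 314 without it had a median of 75.8. The 20.3 is that of the weaker region of an overlapping pair in tou. Both single-replicate lists held 19 of the 37 (51.4%) and 59 of the 314 (18.8%). The 37 lay farther from starts, with a median of 2796 bp against 1366 bp, and in longer genes (40969 bp against 13989 bp). The share with the letters was 4.80% at 500 to 1000 bp from a start, 9.78% at 1000 to 2000 bp, 17.1% at 2000 to 5000 bp and 16.7% at 5000 to 10000 bp. At 10000 to 20000 bp 1 of 15 regions held them, and beyond 2 of 7. By location, 27 of the 37 were intronic. The letters stood at 11.8% of the regions in first introns, 12.2% of those in second introns, 0 of 15 in intron 3 (which allows up to 20%) and 7 of 22 in intron 4 or later (31.8%). Among the 28 regions in 3' UTRs there were 0, which allows a share of up to 10.7%. The strongest were CG9171 (198), otp (189.8), Egfr (167), Hr4 (153), raskol (142) and Eip74EF (141), in which the replicates gave 66.4 and 82.6.

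The letters were found in 5 of the 16 regions of hormone response genes, which stand for 15 separate places, beside 10.5% of all 351 regions. They stood at Hr4 and at both regions each of Eip74EF and Eip75B. Of 9 regions in Antp, Ubx, lncRNA:bxd, lncRNA:iab8 and Abd-B, genes of the Hox complexes, 3 held the letters and 6 did not. They stood in the first intron of Antp (chr3R:6912189-6912484, signal 125, replicates 56.8 and 66.5), in lncRNA:iab8 (chr3R:16919091-16919386, 110.5, replicates 63.7 and 50.5) and in Abd-B (chr3R:16969561-16969856, 98.0, replicates 36.7 and 65.1). The region in Antp also held GCATACTT. These 3 regions lay in introns.

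CG42726 itself (FBgn0261679, chr3R:15348048-15350391, plus strand) held 1 of the 351 regions. It lay at chr3R:15350205-15350500 with a signal of 67.1, rank 2449 of the main list, where CG42727 and Trs33 are also annotated, 642 bp from the start of Trs33. Its summit was classed as 3' UTR.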

How the data were processed

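The deposited files are region lists on dm6, per the labels. The authors' lists hold a signal value per region, and its scale is not given in the sources used here, nor are the aligner and peak caller; the control was not analysed here. The deposited ranked lists give the −log10 of the irreproducible discovery rate, and its lowest value among the 351 regions was 2.00. No counts are given, so depth is unknown and signals were compared within a list, except for the ratio of the replicates. Genes came from Ensembl release 115 without transposable elements, sequence from RefSeq's copy of the same assembly. Each summit took the first class that applied, in the order 5' UTR, exon with coding sequence, 3' UTR, exon of a non-coding transcript and intron, set beside all gene-body bases over 500 bp from a start. Overlap meant at least 1 bp. Intervals are exact Clopper-Pearson or Poisson 95% intervals, or order-statistic intervals of a median. They cover counting error only, and limits for a count of 0 use 3 counts. The letter search, the overlaps and the interval of a median were tested on simulated data. Distances to starts and first introns were checked on annotated transcripts, and location classes and densities were not tested. Python 3.11.15, numpy 2.4.6, pandas 2.3.3, scipy 1.17.1 and matplotlib 3.10.9 were used.

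Members, lists and letters were chosen with earlier results of these data known. Genes named are hosts of the 20 strongest members, the 3 strongest of each class, hosts of at least 3 members, up to 3 members of each list, those at the 500 bp limit and CG42726. Shab, egl, lncRNA:bxd and genes named for replicate differences, mismatched copies, the DRE, AGNNGGCGC, 3' UTR neighbours and the rest of the hormone list were chosen after their values were seen. The repeated copies and AGNNGGCGC windows printed were also chosen then, in place of the planned matches of CACGTG and CANCNCTA, and of the planned summit windows only that of SK is shown. The result of 1 gene list is not reported here.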

Additional observations from a re-analysis of the deposited data

How the results depend on the processing

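No paired analysis was possible because there is 1 group. Of 86 recomputed values 61 stayed within the interval of the main value (counts within 1.5 times) and 25 moved. The 61 include the values taken at the midpoint of each region, which were identical to the main ones. They could hardly differ, since the summit of a region mostly lies at its centre. Among regions above the median signal the intron share was over the 66.7% of the sequence in place of under it. Its interval of 61.4 to 81.2 includes 66.7%, so a turn in direction is not shown. The share in first introns was under 50% among the regions in an intron of the longest transcript. From pooled reads there were 702 regions, 50.7% of them in introns, with a median signal of 66.5 and 11.1% in both single lists. The lists of single replicates gave 144 to 269 regions, 61.0% to 62.5% in introns, 53.3% to 64.6% of those in first introns, median signals of 46.5 to 55.6 and median hosts of 14733 to 23484 bp, 1.39% to 1.86% with a DRE and 15.3% to 20.1% with GAGAG. Regions above the median signal numbered 86, with 72.1% in introns, a median of 132, hosts of 28568 bp, 73.3% in both lists and 4.65% with a DRE. Over 1000 bp from starts there were 226, with 64.6% in introns and hosts of 22287 bp. With coding starts only, 46.2% were in introns, the median was 83.7 and 30.6% were in both lists. Introns counted first held 65.8%, and of the regions in an intron of the longest transcript 47.2% were in its first. GAGAG stood within 25 bp of 8.55% of summits and within 100 bp of 31.1%. Leaving out the weaker of overlapping pairs or the 2 strongest regions, chosen after seeing the data, moved no value past its interval. The files hold no counts and no untagged control was analysed here, so neither depth nor background limits could be given for single regions.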
